A study of Homo sapiens with 2 samples.

Results

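The exon rows of the zinc finger gene clusters near the end of the long arm of chromosome 19 were examined in Huh-7 cells, a human hepatocellular carcinoma line, after BS008, a derivative of the diuretic amiloride. The rows were chosen by position alone, in windows that were set with earlier results of these data known. A row was a member when its start and end both lay inside chr19:52300000-53900000 (the first cluster) or chr19:57600000-59100000 (the second cluster), on either strand, in the files' coordinates, which are on hg19 per the submitters' processing notes. This gave 629 of the 239322 exon rows of the series, 267 in the first cluster and 362 in the second, and the other 12610 rows of chromosome 19 served for comparison. Cells received 0.1% DMSO (control) or 0.1 mM BS008 for 24 h, and 1 library was sequenced for each condition. The exon rows held 55476654 reads of the control library and 53578432 reads of the BS008 library. With 1 library a condition, the spread between cultures was not measured and no test was made. The intervals given below cover counting error only, and each difference is a difference between these libraries.

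KRAB zinc finger proteins are the largest family of transcription factors in the human genome. Their KRAB domain recruits the corepressor TRIM28 (KAP1), which brings histone methylation and silencing, and their zinc fingers bind DNA, in many cases within transposable elements. A typical gene of the family has a few short upstream exons, a KRAB A exon of a nearly fixed length, in many genes a short KRAB B exon, and 1 long last exon that codes for the whole array of fingers. Genes of the family arose by tandem duplication and lie side by side in clusters, so that neighbours share sequence. On chromosome 19, 269 of the 1451 protein-coding genes in the RefSeq gene table (assembly GRCh38.p14) have a symbol of a zinc finger family (18.5%). That table is on another build than the files, and the files carry no gene names, so exon rows are given by position and no row was assigned to a gene.

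The exon lengths fitted the label of the clusters. The usual length of a KRAB A exon was also the most frequent length among the members. It was found in 64 of the 629 (10.2%), called KRAB A-length rows here, against 178 of the other 12610 rows of chromosome 19 (1.41%) and 1430 of all 239322 rows (0.598%). Rows of at least 1000 bases, called long rows here, numbered 119 among the members (18.9%), against 904 of the other rows of chromosome 19 (7.17%). The windows also held stretches without a KRAB A-length row, and these included the stretches with the most reads.

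The members were weakly expressed. Their median read count went from 9 in the control library to 16 in the BS008 library, while the median of the other rows of chromosome 19 was 13 and 14, respectively. Per length, the median RPKM (reads per kilobase of the row, scaled to the library total) of the members was 0.895 in control cells and 1.48 after BS008, against 1.37 and 1.44 for the other rows of chromosome 19. At least 1 read was found on 496 members in control cells (78.9%, 95% Wilson interval 75.5 to 81.9%) and on 537 in BS008-treated cells (85.4%, 82.4 to 87.9%). The same share went from 68.4% to 69.8% in the other rows of the chromosome. Reads were found only in control cells on 17 of the 629 members and only after BS008 on 58, and 75 members had none in either library. Of the 12610 other rows of chromosome 19, 487 had reads only in control cells and 668 only after BS008. Of all 239322 rows, these were 8272 and 11018. Thus, more rows of the clusters became visible after BS008, but most of them had few reads. The row with the most reads among those at 0 in control cells, chr19:52899569-52899752, had 17 reads after BS008, at least 5.87-fold higher when the control library is set to a floor of 3 counts.

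Changes were then expressed as the log2 ratio of BS008 to control on CPM values (counts scaled to the library total), after adding 0.02 CPM, about 1 read. Of the members, 265 (42.1%) had at least 40 reads summed over both libraries. The median log2 ratio of these was 0.50 (25th to 75th percentile -0.01 to 1.15), compared with -0.10 (-0.52 to 0.38) for 5985 other rows of chromosome 19 and -0.07 for 111629 rows of all chromosomes. At least 2-fold higher after BS008 were 84 of the 265 members (31.7%), while 7.49% of the other rows of chromosome 19 and 8.43% of all rows passed that limit. At least 2-fold lower were 7 members (2.64%), against 9.46% of the other rows of the chromosome and 9.19% of all rows. The ratio was above 0 for 198 of the 265 members (74.7%), against 43.7% of the other rows of chromosome 19 and 45.5% of all rows. The difference was present in both clusters, with a median of 0.75 over 84 rows of the first (32 higher, 1 lower) and 0.36 over 181 rows of the second (52 higher, 6 lower). It was also present on both strands, with medians of 0.35 for 151 plus-strand rows and 0.63 for 114 minus-strand rows. A row with few control reads passes the limit of 40 reads only if its count after BS008 is high, and 35 of the 84 higher rows had under 20 reads in control cells. In all, 57 of the 629 members overlapped another row, 41 of them on the opposite strand, and their reads may be counted under both. The 228 rows without any overlap had a median of 0.52.

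**Figure D1:**
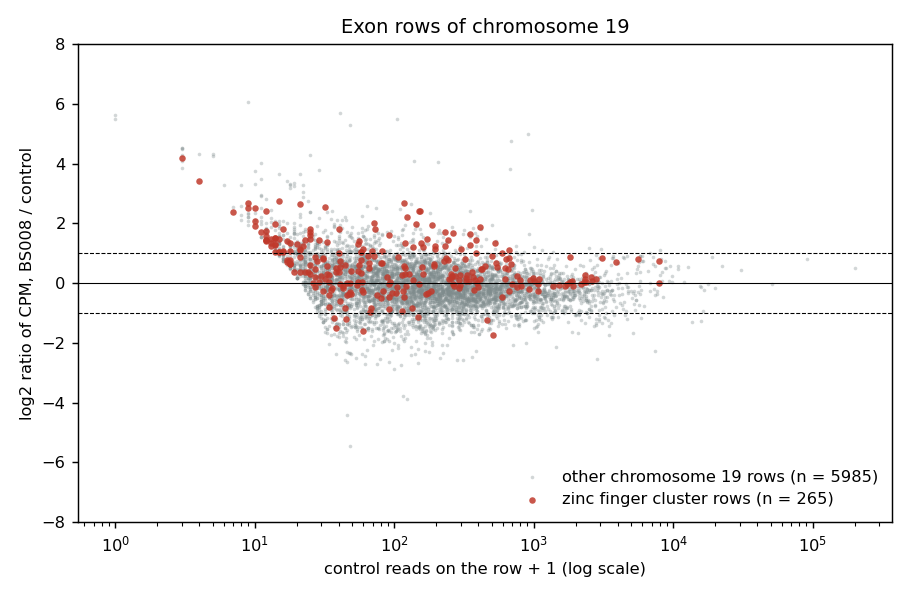
Log2 ratio of CPM (BS008 to control) against control reads plus 1 (log axis) for the rows of chromosome 19 with at least 40 summed reads. The 265 zinc finger cluster rows (red) lie mostly above 0, and 84 of them lie above the upper dashed line (2-fold), while the 5985 other rows (grey) scatter around -0.10. The empty corner at the lower left comes from the limit of 40 reads.

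The rows were next compared at similar control counts, which removes that limit. Over rows with at least 20 control reads, 49 of 230 members (21.3%) were at least 2-fold higher and 12 (5.22%) lower by as much. Of all rows with such counts, 5.96% were higher and 10.6% lower, and of the other rows of chromosome 19, 5.16% were higher. Among rows with 20 to 49 control reads, the median log2 ratio was 0.29 for 68 members and 0.05 for 1088 other rows of the chromosome. The gap was small there relative to the width of the members' own distribution (25th to 75th percentile -0.30 to 0.81). With 50 to 99 control reads, the medians were 0.40 for 37 members and -0.04 for 1037 other rows. The widest gap was found with 100 to under 200 control reads, where 36 members had a median of 0.51 and 1208 other rows had -0.13, and 13 members (36.1%) against 3.56% of the other rows were at least 2-fold higher. The sets differed in length in this class, as 29 of the 36 members but 82 of the 1208 other rows were of at least 1000 bases. All 13 higher members were such long rows, 44.8% of the 29, against 22.0% of the 82 other long rows (medians 0.65 and 0.34). Of the 7 shorter members, 0 were at least 2-fold higher, against 2.22% of the 1126 other shorter rows (medians 0.30 and -0.15). With 200 to under 500 control reads, the medians were 0.29 for 42 members and -0.21 for 1354 other rows, and 35 of the 42 members were above 0. So were 468 of the 1354 other rows, and 7935 of all 21520 rows with such counts. In the deepest class, with 500 control reads or more, 47 members had a median of 0.11 and 1206 other rows had -0.25. Thus, the median of the members was above that of the other rows of the chromosome in each of these classes.

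**Figure D2:**
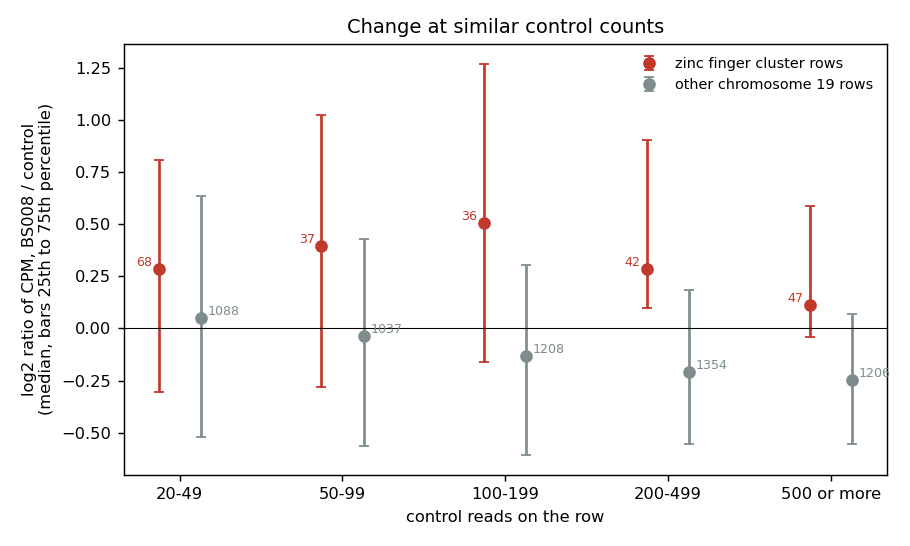
Median log2 ratio of CPM (BS008 to control) by class of control reads on the row, with bars from the 25th to the 75th percentile and the number of rows beside each point. The members (red) are above the other rows of chromosome 19 (grey) in each class, and the bars of the sets overlap.

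The finger-coding layout of these genes puts most of their length in long rows, so the members were split by length. The 97 long rows with at least 40 reads had a median log2 ratio of 0.73, and 40 of them (41.2%) were at least 2-fold higher, with 2 lower by as much. The 600 long rows elsewhere on chromosome 19 had a median of 0.04, and 15.7% of them were at least 2-fold higher. Summed over all 119 long members, 23716 reads were counted in control cells and 38916 after BS008, a log2 ratio of 0.76. The 40 members of 3000 bases or more stood highest, with a median of 0.85 over the 35 that had enough reads and 15 rows (42.9%) at least 2-fold higher. Elsewhere on chromosome 19, rows of that length had a median of 0.16 and 16.2% were at least 2-fold higher, and of all rows of that length 13.5% were. In the shortest class, below the KRAB A length, 47 members had a median of 0.13 against -0.12 for 2408 other rows of the chromosome. At least 2-fold higher were 8 (17.0%) against 5.69%. Rows with few control reads passed the limit of 40 reads only through their count after BS008. Among the higher rows, these included rows with 10 and 34, 3 and 41, and 9 and 40 reads. With 20 to 49 control reads, 7 of 55 members under 1000 bases were at least 2-fold higher and 8 lower. Of 1021 other such rows of chromosome 19, 121 were higher and 129 lower. With 50 to 99 control reads, 6 of 24 members under 1000 bases and 48 of 970 other such rows were higher. The 35 members under 1000 bases with 500 control reads or more had a median of 0.07, against -0.24 for 967 other such rows of chromosome 19. Of these members, 0 reached 2-fold in either direction, against 0.93% higher and 6.41% lower among the other rows. Their summed reads went from 71102 to 86295 (log2 ratio 0.33). Length and depth were not independent of the change elsewhere. Long rows of chromosome 19 outside the clusters with 20 to 49 control reads had a median of 0.67 (67 rows), close to the 0.73 of the 13 long members with such counts. With 200 to under 500 control reads, however, the long rows differed, with 0.78 for 26 members and 0.05 for 137 other rows.

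The KRAB A-length rows had few reads each. Over all 64 members, 927 reads were counted in control cells and 1297 after BS008 (log2 ratio 0.53), whereas the 178 other rows of that length on chromosome 19 had 7502 and 6417 (-0.18). Only 17 of the 64 had 40 reads or more in all, and 7 of these were at least 2-fold higher and 1 lower by as much, against 8.45% and 8.93% of all rows of that length. However, 6 of the 7 higher rows had under 20 control reads and passed the limit through their count after BS008. Of the 9 members with at least 20 control reads, 1 was at least 2-fold higher and 1 lower by as much, and their median was 0.03, against -0.25 for 51 other rows of that length on chromosome 19 and -0.15 for 605 of all rows. The largest ratio among the 17, on few control reads, was at chr19:58145997-58146123, with 9 and 55 reads (2.52), followed by chr19:58067599-58067725, with 8 and 49 (2.51). The lowest was at chr19:53391380-53391506, where 44 reads in control cells were followed by 18 after BS008 (-1.19). The row at chr19:52817406-52817532 had 92 and 91 reads and thus hardly moved.

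**Figure D3:**
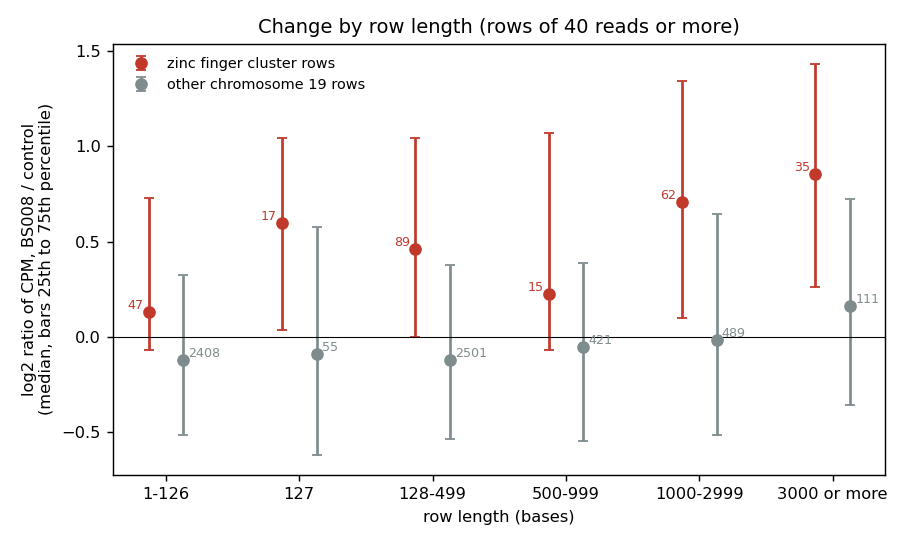
Median log2 ratio of CPM (BS008 to control) by row length in bases, for rows with at least 40 summed reads, with bars from the 25th to the 75th percentile and the number of rows beside each point. Members (red) are above the other rows of chromosome 19 (grey) in each class, from 0.13 in rows below the KRAB A length to 0.85 in rows of 3000 bases or more. Rows with few control reads pass the limit of 40 reads only through their count after BS008. For KRAB A-length rows with at least 20 control reads, the median was 0.03 for 9 members and -0.25 for 51 other rows of chromosome 19.

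The change was not even along the clusters. In stretches of 200 kb, the summed reads of the first cluster were highest relative to control at its start, where chr19:52300000-52500000 went from 894 reads to 2487 (log2 ratio 1.53). The next stretch had 1578 and 3574 (1.23). From 52700000 to 52900000, 11464 and 11450 reads were counted (0.05), and that stretch held most of the reads of the cluster. The remaining 5 stretches lay between 0.42 and 1.07. In the second cluster, the first 3 stretches stood together. Their reads went from 1178 to 3163 (1.47), from 1939 to 4602 (1.30) and from 2522 to 6898. Of their rows with at least 40 summed reads, 6 of 6, 8 of 14 and 20 of 24 were at least 2-fold higher, while 0 were at least 2-fold lower. Of all rows with that many reads, 8.43% were higher and 9.19% lower. Rows with few control reads passed this limit only through their count after BS008. In the first of the 3 stretches these included rows with 6 and 35, and 11 and 30 reads. From 58200000 to 58400000 the summed ratio was 0.16, and of 24 rows 4 passed 2-fold upward and 4 downward. The next 3 stretches were at 0.58, 0.87 and 0.71, going from 1496 to 2164, from 2298 to 4058 and from 26930 to 42427 reads. At the far end of the second cluster, from 59000000 to 59100000, 45304 and 45685 reads were counted (0.06), and 4 of 49 rows were at least 2-fold higher.

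To lower the counting error, rows were joined into loci. A locus was a run of member rows on 1 strand with gaps of at most 10 kb, which may hold a single gene, several genes or a part of a gene. The members formed 102 loci, of which 67 had at least 100 reads summed over both libraries. The median log2 ratio of these 67 was 0.72 (25th to 75th percentile 0.11 to 1.26), against -0.03 for 744 loci elsewhere on chromosome 19. At least 2-fold higher were 24 of the 67 (35.8%), and 1 (1.49%) was at least 2-fold lower. Of all 17807 loci of the series with that many reads, 9.17% were higher and 8.17% lower by this measure. With a limit of 50 control reads in place of the summed limit, 20 of 62 member loci (32.3%) were at least 2-fold higher and 1 lower, against 7.07% and 9.15% of all loci, with a median of 0.68. The exact (Clopper-Pearson) 95% interval of the ratio over the 67 loci lay above 0 for 46 member loci, below 0 for 6 and across 0 for 15. This count was not made for loci elsewhere, so it has no background to be read against. Where reads are many, such an interval excludes 0 even for a small ratio. In 49 loci, a KRAB A-length row lay 5′ of a long row, as in a KRAB zinc finger gene. Of these, 46 had enough reads, with a median of 0.95 (0.37 to 1.33) and 20 at least 2-fold higher. The 21 other loci with enough reads had a median of 0.30, and 4 of them were at least 2-fold higher. With at least 50 control reads, 19 of 45 loci with the layout and 1 of 17 without it were at least 2-fold higher (medians 0.95 and 0.08). By cluster, the loci without the layout were few. In the first, the medians were 0.94 (21 loci with the layout) and 0.55 (6 without), and in the second they were 0.96 (25 loci) and 0.11 (15 loci). The 6 loci that had enough reads but no long row lay between -0.16 and 0.78.

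**Figure D4:**
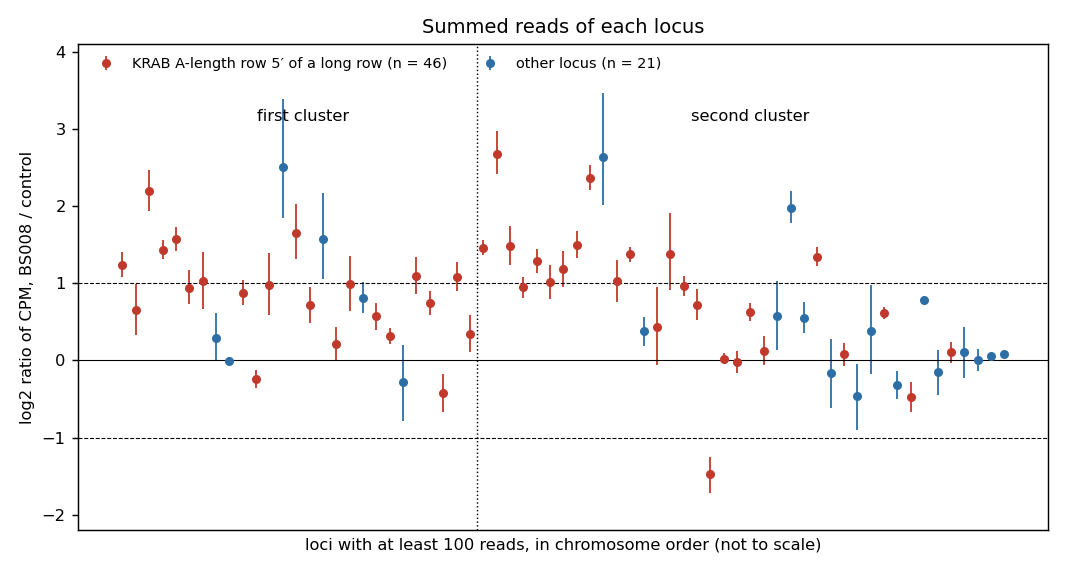
Log2 ratio of CPM (BS008 to control) of the summed reads of each of the 67 loci with at least 100 reads, in chromosome order and not to scale, with exact 95% intervals for counting error. Loci with a KRAB A-length row 5′ of a long row (red) have a median of 0.95 and the others (blue) 0.30, and 1 locus lies below the lower dashed line (2-fold).

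The highest ratio among loci with at least 200 reads was at chr19:57791419-57805436 on the plus strand (log2 ratio 2.68, 95% interval 2.42 to 2.97). This locus has 4 rows in the order typical of the family. Its first row, of 74 bases, went from 4 reads in control cells to 6 after BS008, the next, of 352 bases, had 3 and 24, the KRAB A-length row had 4 and 30, and the long row of 3370 bases had 116 and 730. The last 3 of these rows had nearly the same log2 ratio (2.66, 2.65 and 2.69). The RPKM of the long row went from 0.620 to 4.04.

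Next was chr19:58053208-58071228 on the minus strand, with 398 and 1983 reads (2.36, 2.21 to 2.53). Each of its 6 rows was higher after BS008. The long rows of 1404 and 1537 bases had 150 and 769, and 153 and 790 reads, the KRAB A-length row had 8 and 49, and a row of 96 bases had 3 and 41. This locus shares ground with a row of 5157 bases on the opposite strand, chr19:58063753-58068909, which had 20 and 126 reads (2.64). The latter row covers the 96-base and KRAB A-length rows of the former, and as it is not stated whether strand was used in counting, the reads of both cannot be told apart there. The minus-strand rows outside that overlap were higher too, from 1.96 to 2.41.

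The minus-strand locus chr19:52467595-52477784 in the first cluster had 145 and 645 reads (2.19, 1.94 to 2.47). All 4 of its rows were higher, with 122 and 543 reads on the long row of 1873 bases, 6 and 23 on the row of 96 bases, 9 and 24 on the KRAB A-length row and 8 and 55 on that of 186 bases. At chr19:58595209-58666477, 238 and 910 reads were counted (1.98), and long rows of 4996 and 3260 bases held nearly all of them, with 31 and 179, and 186 and 686. This locus has no KRAB A-length row. The 9-row locus chr19:52901121-52921656 had 90 and 276 reads (1.65), and each row was higher, from 0.89 to 1.99.

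The other 5 loci among the 10 highest lay between 1.44 and 1.57. At chr19:52567719-52599018, 448 and 1290 reads were counted (1.57), and at chr19:57999079-58052131, 388 and 1060 (interval 1.33 to 1.67). At chr19:57831877-57842144, all 4 rows were higher and their sum went from 184 to 498 (1.48). The locus chr19:57716765-57774105, with 1152 and 3064 reads (1.46), holds the longest member, of 11491 bases, which had 668 and 1374 reads (1.09), and a row of 9665 bases, which had 413 and 1454 (1.86). Its KRAB A-length row had 1 read in control cells and 18 after BS008. The rows of chr19:52567719-52599018 were uneven, as a row of 66 bases had 29 and 33 reads (0.23), whereas the KRAB A-length row had 3 and 32. The last, chr19:52490023-52552073, had 751 and 1964 reads (1.44).

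Few loci were lower. At chr19:58318452-58326281 on the minus strand, 592 reads were counted in control cells and 205 after BS008 (-1.47, -1.72 to -1.25). This was the single locus past 2-fold in that direction, and its rows have the layout of the family. Its long row of 2020 bases had 506 and 146 reads (-1.74, from 4.52 to 1.35 RPKM), its KRAB A-length row 46 and 34 (-0.38) and its row of 381 bases 40 and 25 (-0.61). The next lowest were chr19:58858174-58881295 with 531 and 369 reads (-0.47, -0.67 to -0.28), chr19:53606518-53686196 with 325 and 234 (-0.42, -0.67 to -0.18) and chr19:58838385-58870969 with 568 and 439 (-0.32, -0.50 to -0.14). At chr19:52817406-52829172, 1264 and 1036 reads were counted (-0.24, -0.36 to -0.12), and its KRAB A-length, 129-base and 4341-base rows had ratios of 0.03, -0.33 and -0.25. The intervals of the other 5 loci among the 10 lowest spanned 0. They were chr19:58920063-58929690 (210 and 182 reads), chr19:58376129-58400442 (817 and 777), chr19:52704346-52729670 (9586 and 9257), chr19:59009700-59031188 (839 and 815) and chr19:58331094-58376486 (3157 and 3095). The last of them was not uniform. Overlapping rows of 1282 and 318 bases that share a start had 459 and 187 (-1.24), and 147 and 64 reads (-1.14), while its last row, of 6543 bases, had 2322 and 2682 (0.26).

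The loci with the most reads weigh most in any sum over the clusters, and their ratios differed among them. The locus chr19:59055836-59097723, without a KRAB A-length row, held 34.4% of all member reads in control cells and had 36568 and 36805 reads (0.06, 0.04 to 0.08). On the opposite strand, chr19:59062934-59084942 had 7897 and 8065 (0.08, 0.04 to 0.13), and in the first cluster chr19:52704346-52729670, also without a KRAB A-length row, was at 0.00 (-0.04 to 0.04). By contrast, the 5 rows of chr19:58898636-58906170 went from 22306 to 37038 reads (0.78, 0.76 to 0.81), and the ratios of the single rows lay between 0.71 and 0.86. This locus has neither a KRAB A-length nor a long row and held 21.0% of the member reads in control cells and 26.5% after BS008. The locus chr19:58790318-58827011 had 2308 and 3424 reads (0.62) and chr19:53341786-53400946 had 1463 and 1757 (0.31). The locus chr19:58095628-58154147, of 20 rows, had 1164 and 2914 (1.37).

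Altogether the members held 0.192% of the counted reads in control cells (95% Wilson interval 0.190 to 0.193%) and 0.261% in BS008-treated cells (0.260 to 0.262%), a log2 ratio of the shares of 0.45. Without the 20 rows with the most control reads, the shares were 0.0833% and 0.122%, a log2 ratio of 0.55. The other rows of chromosome 19 held 5.68% and 5.89%. As these are bulk RNA samples, more RNA per cell and a different mixture of cells cannot be told apart.

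Whether long rows moved with the short rows of the same locus was described by the share of the reads of a locus that fell on its long rows. In 55 loci with rows of both kinds and at least 40 reads in each library, the median share was 81.2% in control cells and 82.9% after BS008, and the median change was 0.95 percentage points (31 higher, 24 lower). Long rows were higher after BS008 in 48 of these loci and short rows in 45, with both higher in 43. These counts were not made for loci elsewhere, so they have no background to be read against. The median log2 ratio was 0.73 for the long rows and 0.66 for the short rows of a locus. A change of at least 10 points was found upward in 4 of the 55 loci (7.27%) and downward in 3 (5.45%), against 4.98% and 4.44% of 7924 loci of the whole series. In most loci, the share of the long rows thus stayed within 10 points of that in control cells. Where short rows hold few of the reads, however, the share moves little even if they change. At chr19:53206067-53219486 the short rows went from 0 to 15 reads and the share from 100% to 92.6%.

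Among loci with at least 100 reads in each library, the largest change of this share was at chr19:58755331-58775006. There, the long row of 2790 bases held 57.1% of 736 reads in control cells (95% Wilson interval 53.5 to 60.6%) and 74.6% of 752 reads after BS008 (71.4 to 77.6%). The long row had 420 and 561 reads, and the short rows before it were lower, among them the KRAB A-length row with 90 and 47 (-0.87). The sum of the locus hid this, as its log2 ratio was 0.08. At chr19:58082935-58090243 the share rose from 80.7% (74.1 to 86.0%) to 92.0% (88.6 to 94.5%), since the long row went from 134 to 301 reads and the row of 204 bases at the 5′ end from 21 to 10. The share moved the other way in chr19:58318452-58326281, from 85.5% (82.4 to 88.1%) to 71.2% (64.7 to 77.0%), and in chr19:58376129-58400442, from 81.4% (78.6 to 83.9%) to 68.0% (64.6 to 71.1%). In the latter, the long row of 5848 bases had 665 and 528 reads, while rows of 122 and 159 bases had 65 and 100, and 80 and 125. These short rows lie 3′ of the long row, and the 159-base row overlaps a row of the opposite strand. At chr19:58920063-58929690 the share fell from 80.5% (74.6 to 85.3%) to 69.2% (62.2 to 75.5%) on 210 and 182 reads, and the intervals overlapped.

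**Figure D5:**
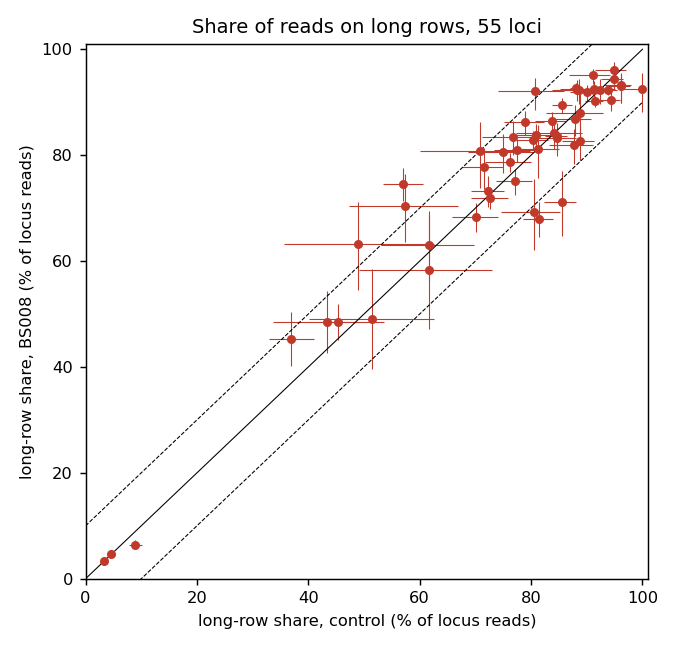
Percent of the reads of a locus on rows of at least 1000 bases, in control (x axis) and BS008-treated cells (y axis), for 55 loci, with 95% Wilson intervals for counting error. Most points lie near the line of equality, and 7 lie beyond the dashed lines at 10 percentage points.

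Single rows with at least 100 summed reads were also ranked. The 5 highest, all long, were chr19:58027422-58029772 with 14 and 97 reads (2.75, 2.03 to 3.77), chr19:57802067-57805436 with 116 and 730 (2.69), chr19:58063753-58068909 with 20 and 126 (2.64), chr19:58595209-58600204 with 31 and 179 (2.54) and chr19:58057825-58059361 with 153 and 790 (2.41). A row with few control reads, such as the first of these, passes the summed limit only through its count after BS008. With a pseudocount of 0.5 CPM, the ratios of the 5 rows were 1.62, 2.45, 1.73, 1.86 and 2.23, in the same order. All of them lie in the second cluster. The 5 lowest also lie there, and besides the rows at -1.74, -1.24 and -1.14 named above they were chr19:58508984-58511264 with 113 and 57 reads (-0.92) and the KRAB A-length row chr19:58757667-58757793 (-0.87). At the edges of the windows few reads were counted. The outermost members at the start of the first and the second cluster had 0 reads in both libraries, and those at their ends had 1 and 5, and 14 and 29 reads. The nearest rows outside had 0 and 0 reads before the first cluster, 7 and 2 after it, 22 and 4 before the second and 6 and 10 after it.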

How the data were processed

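RNA of Huh-7 cells was extracted with Trizol and made into libraries with the Illumina mRNA-seq sample kit. The authors deposited raw read counts for each of 239322 exon rows on hg19, per the labels, and RPKM values, which scale the counts to row length and library total. RPKM recomputed from the counts differed from the deposited values by at most 4.7e-06. The aligner, the counting tool, the use of strand and the treatment of reads that match several places are not given in the sources used here. Reads of near-identical zinc finger genes may therefore be split between copies or left out, so values of single loci are uncertain. No genome of the files' build was at hand, and no sequence is shown.

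Counts were divided by the library total (CPM), and the log2 ratio was taken with a pseudocount of 0.02 CPM. A pseudocount of 0.5 CPM, about 28 reads, flattens rows with so few reads, and served as an alternative. A floor of 3 counts was 5.4e-06% in control and 5.6e-06% of the reads in BS008-treated cells. Loci named are the 10 highest, the 10 lowest and the 10 with the most reads among those with at least 200 reads, rows named are the 5 highest and 5 lowest with at least 100 reads, and shares named are the 5 with the largest change among loci with at least 100 reads in each library. Further rows of named loci, the KRAB A-length rows and the stretches of 200 kb were described after their values were seen. The windows, lists and limits were chosen with earlier results of these data known. The ratio, call and run code was tested on simulated data. Python 3.11.15, numpy 2.4.6, scipy 1.17.1, pandas 2.3.3 and matplotlib 3.10.9 were used, with scaling factors from edgeR 4.0.16 and DESeq2 1.42.0 in R 4.3.3.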

Additional observations from a re-analysis of the deposited data

How the results depend on the processing

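No paired analysis was possible because each condition has 1 library, and for the same reason no replicate could be left out. The 84 higher and 7 lower rows became 41 and 2 with a pseudocount of 0.5 CPM (3.61% and 5.15% of the other rows of chromosome 19), and 142 and 21 with at least 10 reads (10.3% and 10.9%). With at least 200 reads they were 32 and 3 (4.27% and 7.76%), and the median was 0.30 against -0.15 for the other rows. At 1.5-fold, 122 rows were higher and 15 lower (17.2% and 22.0%). TMM and DESeq2 factors, totals without mitochondrial rows and leaving out overlapping rows kept the median between 0.52 and 0.54. The gap to the other rows at 20 to 49 reads was 0.24 by control count and 0.68 by the mean of both libraries, and for rows under 500 bases it was 0.15. At 50 to 99 reads the gap was 0.43, or 0.10 for rows under 500 bases (19 members), and at 200 to under 500 reads it was 0.49, or 0.37 for such rows. The 24 higher and 1 lower loci became 38 and 2 with gaps of 5 kb (102 loci tested) and 11 with gaps of 20 kb (35 tested). The limit of 50 control reads for loci was chosen after seeing the data. With at least 200 reads in each library, the loci whose long-row share was 10 points higher fell from 4 to 1. The log2 ratio of the cluster shares was 0.45, 0.55 without the 20 rows with the most control reads, and 0.38 within chromosome 19. Of these results, 51 alternatives stayed within their limits and 16 moved. For single rows and loci, 71 stayed and 7 moved. A larger pseudocount draws ratios of low counts towards 0 by construction. The cause of the other moves was not tested. Rows under 40 reads are the least certain, and the spread between cultures is unknown.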

Other observations

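Chromosome 19 was also read in stretches of 1 Mb with at least 10 rows of at least 40 reads, without regard to the clusters. The highest median log2 ratio among the 52 stretches was outside them, at chr19:37000001-38000000, with 1.38 over 29 rows, of which 19 were at least 2-fold higher and 0 lower by as much. The next was chr19:9000001-10000000, with 0.95 over 43 rows and 19 at least 2-fold higher. The stretches starting at 52000001, 57000001, 53000001 and 58000001, which hold members, came at ranks 3, 4, 5 and 7, with medians of 0.76, 0.73, 0.67 and 0.49. In these, 56 of 59, 20 of 39, 28 of 40 and 112 of 112 rows were members. The remaining stretch with members, starting at 59000001, came at rank 17, with a median of 0.13 over 50 rows, of which 49 were members. KRAB A-length rows were also frequent in the leading stretches, with 13 at chr19:37000001-38000000 and 8 at chr19:9000001-10000000. Of the 12 stretches without members that held at least 5 such rows, 8 had a median above 0 (range -0.19 to 1.38), against 12 of the 35 with fewer (range -0.47 to 0.45). The other rows of chromosome 19 used for comparison include these stretches. These stretches were chosen after the values had been seen, and no test was made.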
